A study of Mus musculus with 4 samples.

Results

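The mitochondrial ribosome carries out protein synthesis inside mitochondria, and its proteins are encoded in the nucleus. The genes described here are those whose symbol on the array's annotation begins with Mrpl, for the large subunit, or Mrps, for the small subunit, followed by a number. They numbered 76 of 18193 named genes, on 156 of the 34945 probe sets with a single gene symbol. By symbol, 47 were counted in the large and 29 in the small subunit, also where a protein is known to sit elsewhere. Each gene is read from its brightest probe set, by mean over the arrays. The data are Affymetrix arrays of cerebellar Purkinje cells that a laser cut from frozen brain sections of intact, untreated male C57BL/6J mice aged 8 weeks. The 4 samples form 1 group, and 2 animals gave 2 samples each, called 1-1 and 1-2 for animal 1 and 2-1 and 2-2 for animal 2. Whether the samples of an animal were captured separately is not stated, so p-values between the animals cover only the spread between these samples, which may be technical. RNA from about a nanogram of input was amplified before labelling.

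Mitochondrial ribosomes make the few proteins that the mitochondrial genome encodes, which are membrane subunits of the respiratory chain and of ATP synthase. Their proteins are made in the cytosol and imported, and then assemble on ribosomal RNAs transcribed inside the organelle. Many of them descend from bacterial ribosomal proteins, and others have no bacterial counterpart and were added during the evolution of mitochondria. Purkinje cells are the large GABAergic output neurons of the cerebellar cortex, and they fire spontaneously and have a high demand for oxidative metabolism.

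The label of the samples was set against cell type markers. In the Purkinje cell marker list, 15 of 15 measured genes were above background on all 4 arrays. The same was true of 4 of 13 granule cell markers, 11 of 15 Bergmann glia and astrocyte markers, 4 of 11 oligodendrocyte markers, 1 of 12 microglia markers and 2 of 13 vessel markers. Markers of neighbouring cells were thus among the genes above background, and the values below belong to the captured material as a whole. The median deposited signal of an array lay between 8.4 and 11.4, both samples of animal 2 were brighter than both of animal 1, and the values were quantile-normalized. Precision is limited throughout by having 4 arrays.

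Most of these genes were detected in the captured cells. Of the 76 genes, 62 (81.6%) were above the background bound on all 4 arrays, against 27.6% of all named genes. That bound was set on each array at the 95th percentile of the signals of genes known from organs outside the brain. In the large subunit 37 of 47 genes passed (78.7%), and in the small subunit 25 of 29 (86.2%). The choice of the brightest probe set favours genes with several, so the count was also read by number of probe sets. Of the 34 members with a single probe set, 25 passed (73.5%), against 14.6% of the 9183 named genes with 1. Of the 42 members with several, 37 passed (88.1%), against 40.8% of such genes. The share of members was above that of named genes in both classes.

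**Figure D1:**
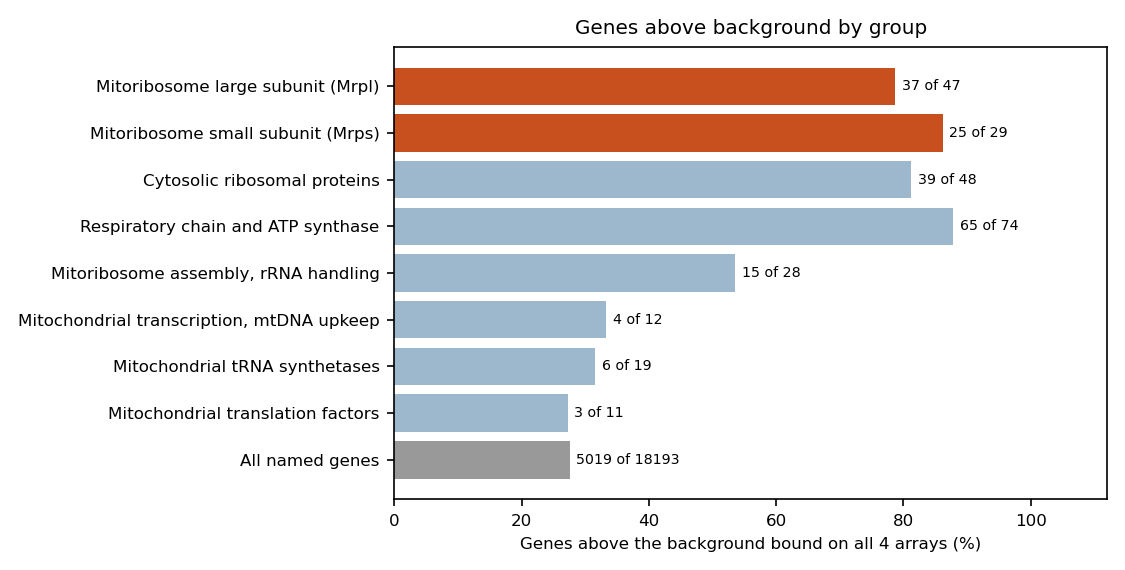
Share of genes above the background bound on all 4 arrays (percent, horizontal axis), for both subunits of the mitochondrial ribosome (orange), for other gene groups (blue) and for all named genes (grey), with the counts beside each bar. Both subunits, at 37 of 47 and 25 of 29 genes, lie beside the cytosolic ribosomal and respiratory chain genes, while 5019 of 18193 named genes pass.

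Members with and without a bacterial counterpart were above the bound in shares between 75.9% and 88.9%. In the large subunit 22 of 29 genes with a bacterial counterpart and 15 of 18 without one were above the bound on all 4 arrays. In the small subunit the counts were 16 of 18 with a counterpart and 9 of 11 without. These are descriptions of the members, and no test was made of the difference.

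The genes whose proteins work with the mitochondrial ribosome passed in shares between 27.3% and 53.6% of a list, against 27.6% of all named genes. The shares were near that background for translation factors (27.3%), tRNA charging (31.6%) and transcription and upkeep (33.3%). The highest was for assembly (53.6%). Of 11 measured mitochondrial translation factors, 3 were above the bound on all 4 arrays: Tufm, the elongation factor that brings charged tRNA to the ribosome, at 7.64 ± 0.14 (mean level ± SD, n = 2 animals), Mrrf, the recycling factor, at 7.18 ± 0.93, and Gfm1, the translocation factor, at 6.65 ± 0.25. Levels here are quantile-normalized log2 signals. Tsfm, the exchange factor for Tufm, was not above the bound on any array. Of 19 genes for charging or correcting mitochondrial tRNA, 6 passed, among them Qrsl1, a subunit of the glutamine amidotransferase, and Rars2, the arginyl-tRNA synthetase. Of 28 genes for assembly of the ribosome or handling of its RNA, 15 passed, with Grsf1, an RNA granule protein, at 11.42 ± 0.17 and Slirp, a partner of the RNA-stability protein Lrpprc, at 10.62 ± 0.67. Of 12 genes for transcription and upkeep of the mitochondrial genome, 4 passed, which were the RNA polymerase Polrmt, the packaging factor Tfam, Tfb2m and the single-strand binding protein Ssbp1. Probe sets differ in their response to RNA, so a gene that did not pass may still be expressed.

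The mitochondrial ribosomal proteins that carry other symbols were read as a separate list of 7 genes, of which 4 were measured on a probe set of their own symbol. Dap3, a GTP-binding protein of the small subunit, was above the bound on all 4 arrays, as were Ptcd3, an RNA-binding protein of the small subunit, and Chchd1. Gadd45gip1, which sits in the large subunit near the exit of the new protein chain, passed on 3 arrays. Among the groups set beside the members, 39 of 48 cytosolic ribosomal protein genes (81.3%) and 65 of 74 nuclear genes of the respiratory chain and ATP synthase (87.8%) were above the bound. Both groups were chosen by symbol and include copies that are known from other tissues. The mitochondrial genome's own genes, 15 in the list, had 0 probe sets with a matching single symbol, so the ribosomal RNAs and the messages that these ribosomes translate were not analysed here.

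Several members with the brightest probe sets varied little between the samples. Brightness depends on the probe set as well as on RNA, so no level is compared between genes. Mrpl41, a large-subunit protein without a bacterial counterpart, was at 11.53, 11.36, 11.60 and 11.59 in samples 1-1, 1-2, 2-1 and 2-2. Mrpl51, another such protein, was at 11.23, 11.11, 11.22 and 11.07 in the same order. Mrps6, the small-subunit protein with the brightest probe set, was at 10.47, 10.46, 10.47 and 10.43. On these probe sets the 4 samples lay within 0.24 log2 units of each other, and for Mrps6 within 0.04. All 3 are of the types that can bind several transcripts, and other probe sets of the genes were dimmer. That of Mrpl41 had a mean of 9.89 and was above the bound on all 4 arrays. The other probe sets of Mrpl51, with means of 4.17 and 2.34, passed the bound on 0 arrays, so its detection rests on the brightest alone. The other probe set of Mrps6 was at 6.29, 7.09, 7.58 and 6.59, with a wider spread. Mrps24, also of the small subunit, was at 9.39, 9.24, 9.03 and 8.89, and both samples of animal 2 lay below both of animal 1. Its other probe set, above the bound on all 4 arrays, did not separate the animals, at 7.38, 6.82, 7.22 and 7.00.

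Mrpl39 and Mrpl44 were also bright, but their samples separated by animal. Mrpl39 was at 11.12, 11.15, 10.57 and 10.58. Mrpl44, which has a fold related to ribonuclease III, was at 10.87, 10.85, 10.50 and 10.32. Both samples of animal 2 lay below both of animal 1 in each gene. The small-subunit genes Mrps33, at 8.99, 9.10, 9.83 and 9.41, and Mrps15, at 8.75, 8.40, 9.49 and 9.58, ran the other way, with both samples of animal 2 above both of animal 1.

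**Figure D2:**
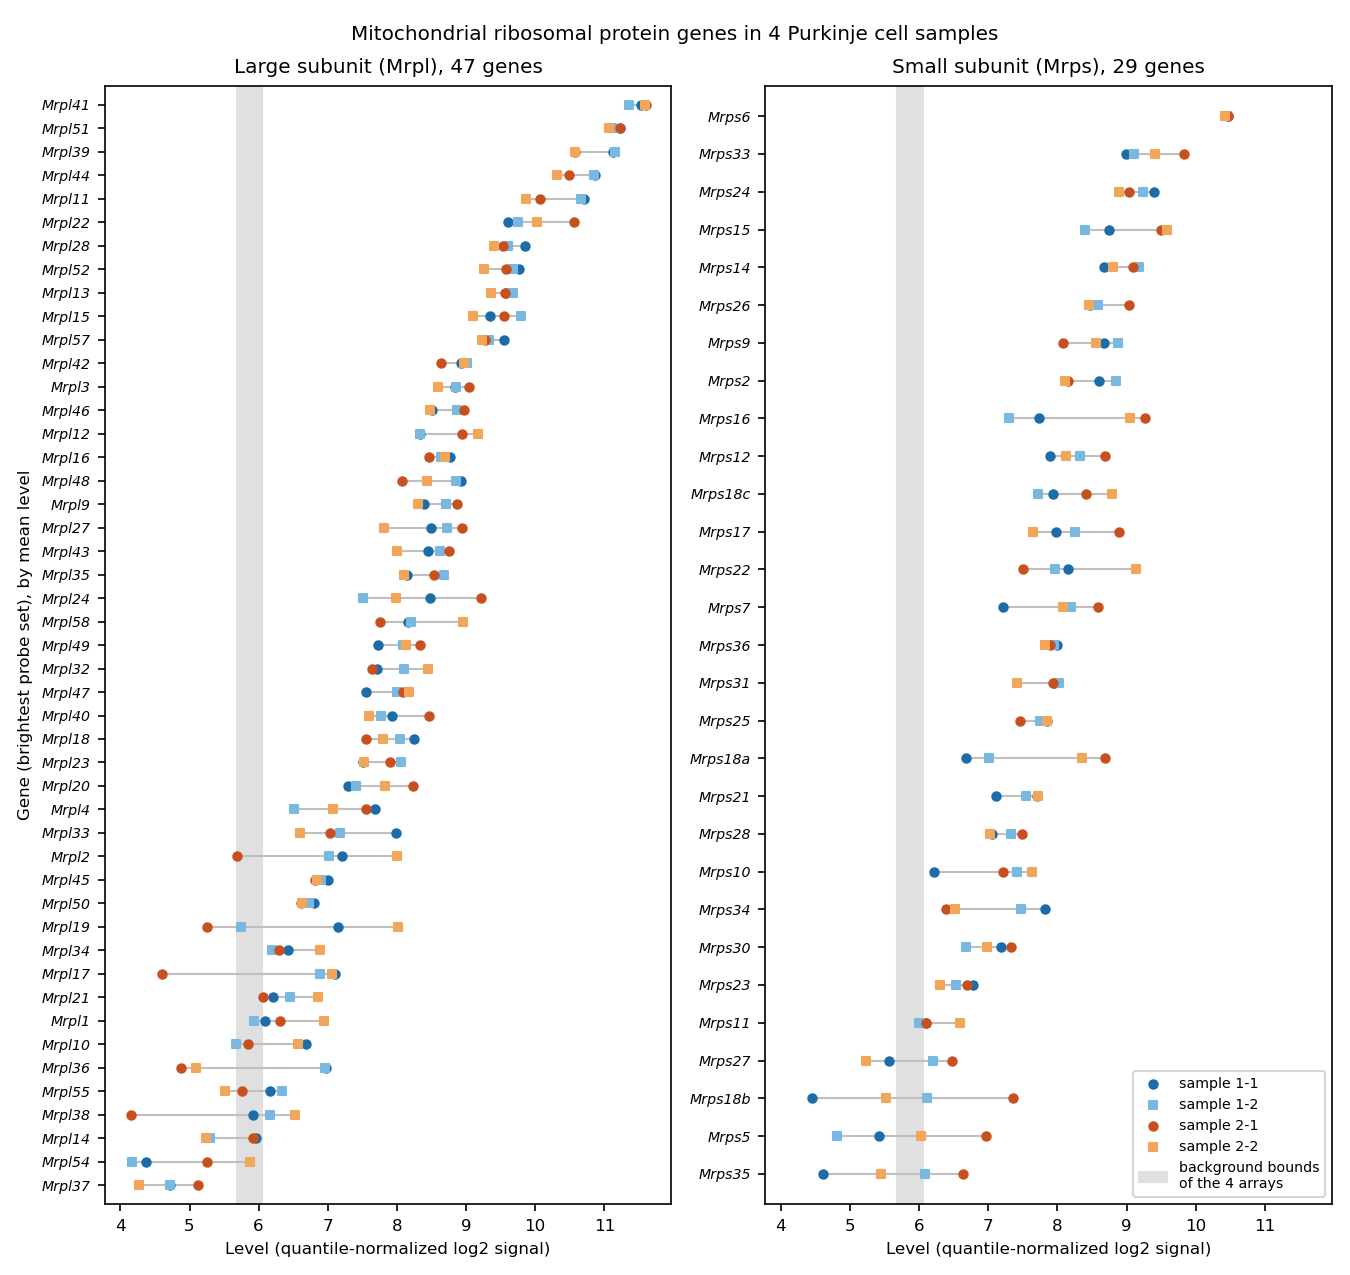
Level of each member (quantile-normalized log2 signal of its brightest probe set, horizontal axis) in samples 1-1, 1-2, 2-1 and 2-2, for 47 large-subunit genes (left) and 29 small-subunit genes (right), ordered by mean level. The grey band spans the bounds of the 4 arrays, 5.68 to 6.06, and 62 members lie above the bound on every array, while the members at the foot of each panel have samples on both sides or below it.

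Members named for known roles were above the bound on all 4 arrays, apart from Mrps18b. Mrps12, a protein of the decoding centre, was at 7.90, 8.33, 8.69 and 8.13, and the samples of the animals overlapped. Mrps30, which carries a small-subunit name but sits in the large subunit in mammals, was at 7.19, 6.67, 7.33 and 6.98, also with overlap. Mrpl45, which lies near the exit tunnel and anchors the ribosome to the inner membrane, was at 7.00, 6.91, 6.82 and 6.84. Mrps36, now known as a subunit of the alpha-ketoglutarate dehydrogenase complex in place of a ribosomal protein, was at 8.00, 7.95, 7.89 and 7.82. In both Mrpl45 and Mrps36 animal 2 lay below animal 1, by differences of -0.13 and -0.12 that were smaller than their SEs of 0.36 and 0.28. Mrpl12, the counterpart of the bacterial stalk protein and a binding partner of the mitochondrial RNA polymerase, was at 8.34, 8.33, 8.94 and 9.17, with animal 2 above animal 1 in both samples.

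The other 14 members missed the bound on at least 1 array. Mrpl37, a large-subunit protein without a bacterial counterpart, was at 4.72, 4.71, 5.12 and 4.27 and passed on 0 arrays. Mrpl14 and Mrpl54 passed on 1 array each. The large-subunit genes Mrpl10, Mrpl36, Mrpl38 and Mrpl55 and the small-subunit genes Mrps5, Mrps18b, Mrps27 and Mrps35 passed on 2, and Mrpl2, Mrpl17 and Mrpl19 on 3. Several of these spread widely between the samples of 1 animal. Mrpl19 was at 7.15 and 5.75 in animal 1 and at 5.25 and 8.02 in animal 2. Mrpl2 was at 7.20 and 7.02 in animal 1 and at 5.68 and 8.01 in animal 2. Mrps35 was at 4.61 and 6.08 in animal 1 and at 6.63 and 5.45 in animal 2. In all 3 genes the samples of the animals overlapped, so a low value in 1 sample does not mark an animal.

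Probe sets of the same gene often differed. Of the 42 members with several probe sets, 31 had at least 1 that missed the bound on all arrays, while 18 had another above it on all 4. Of the 156 probe sets of members, 84 were above the bound on all arrays. For 35 members the brightest probe set was of a type whose name marks binding to several transcripts or variants (endings _s_at, _x_at or _a_at), and 14 members had such probe sets only. When those probe sets were left out, 27 of 42 large-subunit and 16 of 20 small-subunit genes were above the bound, against 23.0% of the named genes left.

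The sequence before the transcription starts was read for motifs of factors known to act on nuclear genes of mitochondria. GABP, an ETS factor also called NRF-2, NRF-1 and YY1 are known to bind promoters of such genes. RefSeq promoter sequences (GRCm38.p6), from 250 bases before to 50 bases after a start, were matched for 67 members, which had 73 promoters. The ETS motif CCGGAAG, sought on both strands, was in 34.2% of the members' promoters, against 18.2% of promoters of genes above the bound on all 4 arrays and 8.86% of all 32851 in the table. The core of the NRF-1 motif, CGCANGCG, was in 26.0%, against 19.4% and 8.21%. The YY1 motif AAGATGGC was in 16.4%, against 5.32% and 2.75%. At least 1 of them was in 57.5% of the members' promoters, against 36.8% and 17.6%. Median GC content, on which such matches depend, was 58.7% in the members' promoters, 61.7% in those of genes above the bound and 52.7% in all.

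The 120 bases before the start are shown for members that the comparison of animals turns on, with matches of these motifs in capitals and each strand read 5′ to 3′ toward the gene. Mrps18a lies on chr17:46110884-46111003 (plus strand) with an ETS match. Mrps16 lies on chr14:20393491-20393610 (minus strand), also with an ETS match, on the opposite strand. The stretch of its other annotated start holds none of the motifs. Mrpl36 lies on chr13:73330889-73331008 (plus strand) with a YY1 match on the opposite strand. Mrpl17 lies on chr7:105811088-105811207 (minus strand) with the NRF-1 core at 2 places. In the longer promoters read for the shares, Mrps18a also had a YY1 match and Mrpl17 an ETS match, outside the bases shown.
Mrps18a: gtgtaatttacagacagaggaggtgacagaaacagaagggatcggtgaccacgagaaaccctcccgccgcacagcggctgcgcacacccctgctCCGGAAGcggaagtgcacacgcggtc
Mrps16: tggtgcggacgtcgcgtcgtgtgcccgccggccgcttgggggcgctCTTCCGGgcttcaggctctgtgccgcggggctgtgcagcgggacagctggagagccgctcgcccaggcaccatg
Mrpl36: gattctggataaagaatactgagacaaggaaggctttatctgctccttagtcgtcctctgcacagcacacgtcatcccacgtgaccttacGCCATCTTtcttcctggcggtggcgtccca
Mrpl17: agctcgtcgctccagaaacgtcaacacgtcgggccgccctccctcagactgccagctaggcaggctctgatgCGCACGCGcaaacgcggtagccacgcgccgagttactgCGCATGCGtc
Mrps18a and Mrps16 had the largest positive and Mrpl36 and Mrpl17 large negative differences between the animals, none of them called with all 4 samples quantile-normalized. A match of letters does not show that a factor binds there.

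Members often shared a start region with a neighbouring gene on the other strand. A start on the opposite strand, facing away, lay within 1000 bases of the start of 25 of the 67 members (37.3%), against 21.0% of genes above the bound and 12.3% of all genes in the table. Of these 25 members, 7 had a partner that was also above the bound on all 4 arrays. Mrps11 and Mrpl46, each the partner of the other, are both among the 7. Another 11 were above it while their partner was not, and in 9 of the 11 the partner was below it on every array. For scale, 81.6% of all members and 27.6% of all named genes were above the bound on all 4 arrays. No test was made of the pairs. Mrps27, on 2 arrays, was the single member in the other direction, with a partner, Ptcd2, above the bound on all 4.

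The pair Mrps11 and Mrpl46 joins both subunits, with starts 42 bases apart. Mrps11 was at 6.09, 6.00, 6.10 and 6.59, and Mrpl46 at 8.51, 8.87, 8.97 and 8.48, with both above the bound on all arrays. Mrps12 shares its start region with Sars2, the mitochondrial seryl-tRNA synthetase, whose start lies 147 bases away. Sars2 gave levels of 3.03, 4.68, -0.053 and 3.06, and passed the bound on 0 arrays, while Mrps12 passed on 4. The bases between the starts of each pair are shown because they are all that separates the starts, for Mrps11 and Mrpl46 at chr7:78783090-78783130 on the plus strand toward Mrps11, and for Mrps12 and Sars2 at chr7:28741822-28741967 on the minus strand toward Mrps12. The full spelling of the 3 motifs occurs in neither interval. Outside these intervals, in the longer promoters read for the shares, Mrps11 had a YY1 match and Mrps12 an ETS and a YY1 match. The longer promoter of Mrpl46 held none of the motifs.
Mrps11 and Mrpl46: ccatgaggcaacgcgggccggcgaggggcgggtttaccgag
Mrps12 and Sars2: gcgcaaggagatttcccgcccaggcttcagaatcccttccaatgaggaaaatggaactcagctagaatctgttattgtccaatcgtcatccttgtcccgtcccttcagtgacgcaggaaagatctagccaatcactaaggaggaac
Other members with a bright partner were Mrpl32 beside Psma2, a proteasome subunit, Mrpl47 beside Ndufb5, a subunit of respiratory complex I, Mrpl49 beside Fau, which encodes a cytosolic ribosomal protein, and Mrpl18 beside Tcp1, a subunit of the cytosolic chaperonin.

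**Figure D3:**
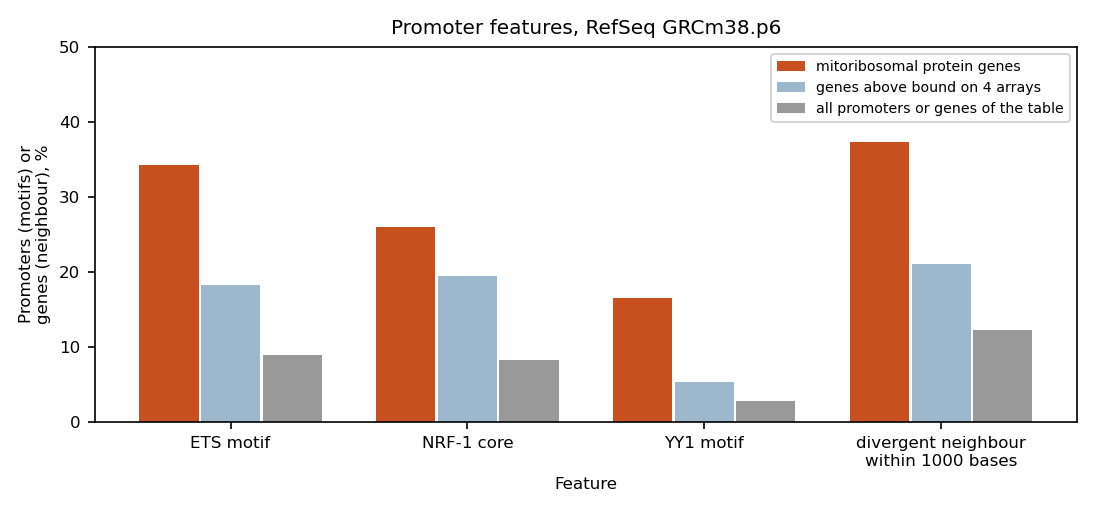
Share (percent, vertical axis) of promoters with each motif, and of genes with a start on the opposite strand within 1000 bases, for members (orange), genes above the bound on all 4 arrays (blue) and all entries of the table (grey). The members are above both other sets in each feature, by the least for the NRF-1 core at 26.0% against 19.4%.

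The second comparison set animal 2 against animal 1. The labels give them no difference in treatment, strain, sex or age, so the comparison describes these samples and tests no condition. No member was called different: 0 of 105 member probe sets tested passed a false discovery rate of 0.05 in limma, where 43 of 10817 probe sets (0.398%) did. At an unadjusted p under 0.05 there were 15 of the 105 probe sets. By gene, 13 of 73 members tested were under that p (17.8%), against 17.4% of the brightest probe sets of all named genes tested, so the members' share was near the background. Both member counts include Mrpl36, which entered the test only through the 2 arrays of animal 1, where it was high. The lowest adjusted p of a member was 0.0725.

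The 4 largest positive differences among tested members were in genes named for the small subunit. Mrps18a, one of several mammalian copies of a bacterial small-subunit protein and a copy that sits in the large subunit, was at 6.67 and 7.02 in animal 1 and at 8.68 and 8.36 in animal 2. Mrps16, a small-subunit protein with a bacterial counterpart, was at 7.74 and 7.31 in animal 1 and at 9.26 and 9.04 in animal 2. Both samples of animal 2 lay above both of animal 1 in these genes. The difference was 1.68 ± 0.33 (log2, SE) for Mrps18a, or 3.20-fold, with an adjusted p of 0.0887 in limma. For Mrps16 it was 1.63 ± 0.29, or 3.10-fold, with an adjusted p of 0.0725. Neither passed the threshold here. Both passed with values as deposited (adjusted p 0.0229 and 0.0198 in limma), where 614 of 10817 probe sets were called, 605 of them higher in animal 2. Without sample 2-1 the differences were 1.52 for Mrps18a and 1.54 for Mrps16, and without 2-2 they were 1.85 and 1.75. They were 1.49 and 1.83 without sample 1-1, and 1.84 and 1.40 without 1-2. Each of these fits left 1 sample of an animal, so no call is given. Mrps16 also passed with arrays scaled to one median (adjusted p 0.0495 in limma), where 97 probe sets were called. It passed as well with quantile-normalized values and the 99th percentile as bound. There 73 probe sets were called higher and 61 lower of 7672 tested.

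Mrps5 and Mrps18b followed in size, but with samples near or below the bound. Mrps5, whose bacterial counterpart lines the channel where the message enters, was at 5.42 and 4.81 in animal 1, below the bound on both arrays, and at 6.96 and 6.03 in animal 2, above it on both. Its mean in animal 2 was at least 1.53-fold that in animal 1, with the array's bound in place of each dimmer signal, and the adjusted p was 0.324 in limma. Mrps5 entered the test only through the 2 arrays of animal 2, where it was high. Mrps18b was at 4.45 and 6.11 in animal 1 and at 7.36 and 5.52 in animal 2, with overlap and an adjusted p of 0.537, and its difference of 1.16 was 0.32 without sample 1-1 and 2.07 without 2-2. The third copy of that protein, Mrps18c, was at 7.93, 7.71, 8.41 and 8.79 in the order of samples, with a difference of 0.78 ± 0.29 and an adjusted p of 0.243. 

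The largest negative differences were in Mrpl36, Mrps34, Mrpl17 and Mrpl33. Mrpl36, a small zinc-binding protein of the large subunit, was at 6.98 and 6.95 in animal 1, above the bound on both arrays, and at 4.88 and 5.09 in animal 2, below it on both. Its mean in animal 1 was at least 2.28-fold that in animal 2 against the bound, and the adjusted p was 0.148 in limma. Mrpl36 entered the test only through the 2 arrays of animal 1, where it was high, so its p-value is no support for a difference. It was not tested without sample 1-1 or without 1-2. The difference was -1.85 without sample 2-1 and -2.07 without 2-2. Mrps34, a small-subunit protein without a bacterial counterpart, was at 7.82, 7.47, 6.38 and 6.52, a difference of -1.19 ± 0.36 with an adjusted p of 0.178, and of -0.62 with values as deposited. Neither gene's samples overlapped between the animals. A probe set annotated to both Mrps34 and its neighbour Nme3 did not follow, at 6.31, 5.80, 6.47 and 6.27.

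Mrpl17, a large-subunit protein with a bacterial counterpart, was at 7.10 and 6.88 in animal 1 and at 4.60 and 7.06 in animal 2. Its difference of -1.16 ± 0.80 rested on sample 2-1. The difference was 0.069 without that sample and -2.37 without 2-2, where 2-1, below the bound, was the only sample of animal 2. Mrpl33, another such protein, was at 7.99, 7.18, 7.03 and 6.60, with a difference of -0.77 ± 0.42 and an adjusted p of 0.386 in limma. That difference was -0.37 without sample 1-1, -1.17 without 1-2, -0.50 with arrays scaled to one median and -0.19 with values as deposited.

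Where a gene had other probe sets, these had the same direction in some members and not in others. The second probe set of Mrps15 differed by 1.14 ± 0.27, beside 0.97 ± 0.23 for the brightest, so both were higher in animal 2. The second probe set of Mrpl39 differed by -1.46 ± 0.65, beside -0.56 ± 0.11, so both were lower, with an adjusted p of 0.0946 in limma for the brightest. Mrpl11, singled out after its values were seen, was at 10.71, 10.67, 10.07 and 9.86 on its brightest probe set, a difference of -0.72 ± 0.15, while its other tested probe sets differed by -0.036 ± 0.35 and -0.031 ± 0.43. In Mrpl44 a dimmer probe set differed by 0.72 ± 0.57, against -0.45 ± 0.13 on the brightest. In Mrpl34 the brightest differed by 0.28 ± 0.46 and the other by -0.92 ± 0.52. None of these passed the threshold.

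**Figure D4:**
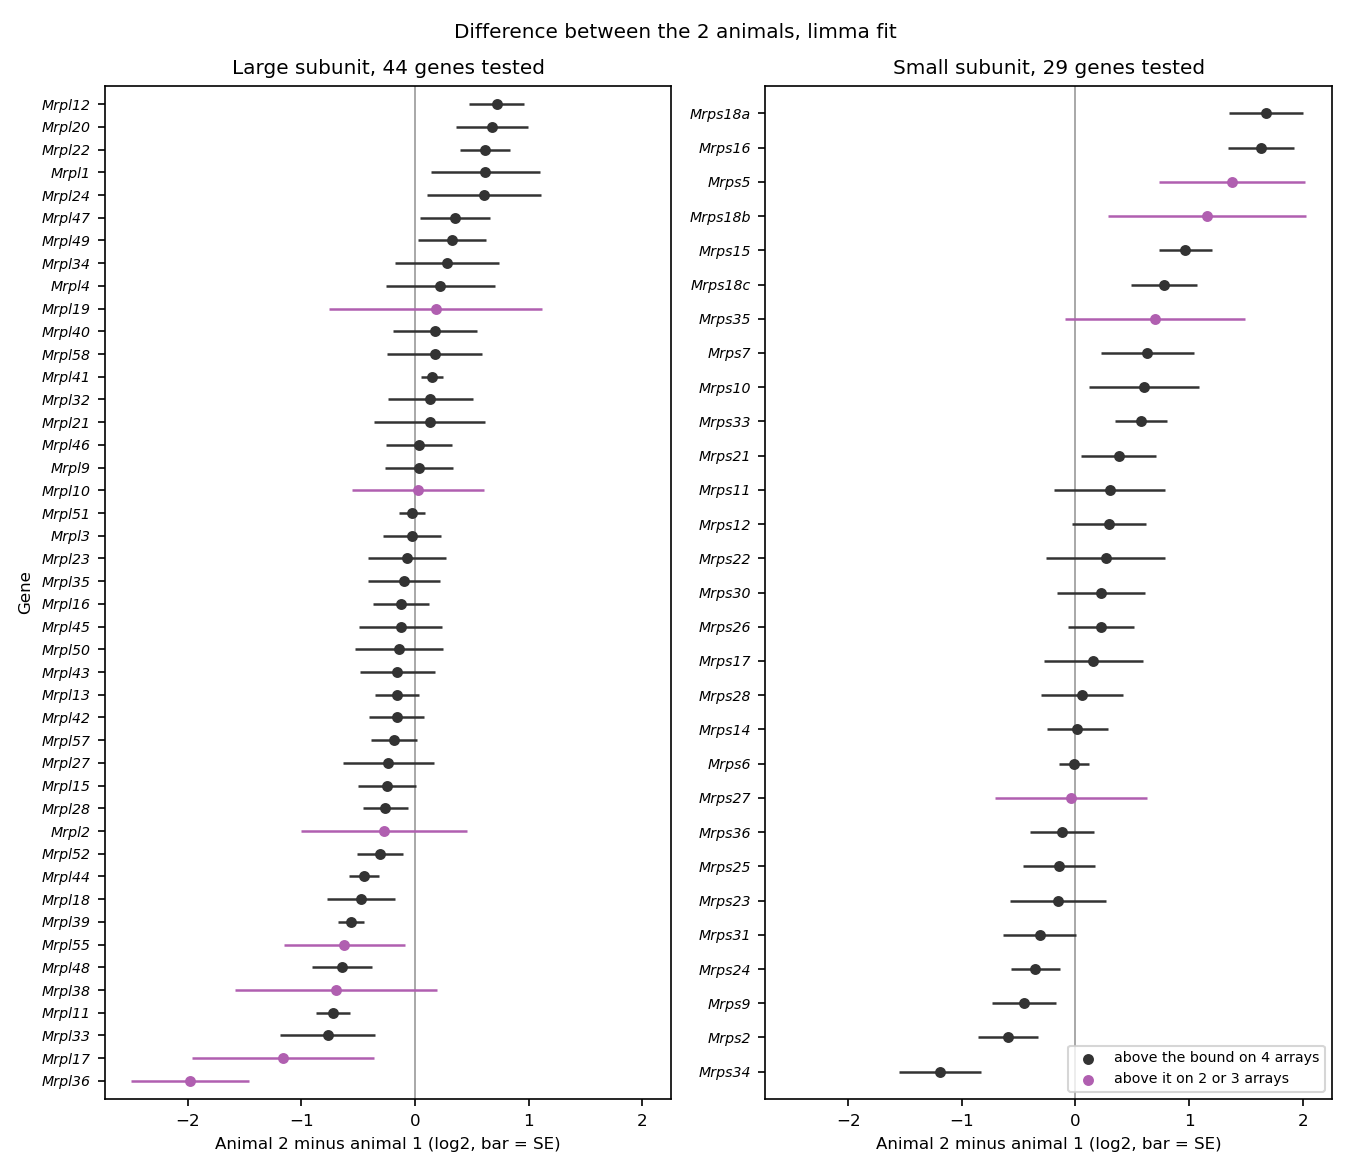
Fitted difference between animal 2 and animal 1 (log2, points) with its SE (bars) for the brightest probe set of 44 large-subunit genes (left) and 29 small-subunit genes (right) that were tested. Points in black were above the bound on all 4 arrays and those in purple on 2 or 3. Mrps18a and Mrps16, at 1.68 and 1.63, lie farthest to the right and Mrpl36, at -1.98, farthest to the left, and none passed the threshold.

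Read by subunit as the symbol gives it, the median difference over the measured members was -0.072 in the large and 0.23 in the small subunit. Over all named genes it was -0.0069. Mrps18a and Mrps30, which sit in the large subunit, and Mrps36 thus count in the small, whose median is the value of Mrps30. Among members above the bound on all 4 arrays, 16 of 37 large-subunit and 16 of 25 small-subunit genes had a positive difference. The sign of the large-subunit median depended on the scaling: it was 0.44 with values as deposited and 0.13 with arrays scaled to one median, where all named genes had medians of 0.43 and 0.12. Relative to all genes, the small-subunit median was higher under each of these scalings, at 0.82 and 0.51. Without sample 1-1 or 2-1 the small-subunit median was 0.024 or 0.047.

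Counts of members whose animals did not overlap were near those of all genes. Of the 62 members above the bound on all 4 arrays, 14 (22.6%) had both samples of animal 2 above both of animal 1, against 23.0% of all named genes above it. The opposite order was found in 18 members (29.0%), against 27.3%. In the large subunit 7 of 37 were higher and 12 lower, and in the small subunit 7 of 25 were higher and 6 lower. A difference of more than 1 log2 unit was seen in 3 of the 62 members (4.84%), Mrps18a, Mrps16 and Mrps34, against 6.46% of all named genes above the bound.

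Markers of other cells moved between the animals too. The granule cell list had a median difference of -1.23, with 11 of 13 genes lower in animal 2, and its summed signal on the log2 scale was 12.07, 12.36, 10.87 and 11.13 in the order of samples. The Purkinje cell list summed to 16.20, 16.21, 16.36 and 16.35, with a median difference of 0.080 and 4 of 15 genes lower. The Bergmann glia and astrocyte list summed to 13.93, 13.93, 13.70 and 13.55, with a median difference of -0.18 and 11 of 15 genes lower. The Purkinje sum was higher and the other two sums lower in animal 2. The oligodendrocyte list summed to 12.35 to 12.40 in animal 1 and 11.77 to 12.20 in animal 2, with 7 of 11 genes lower. The vessel list summed to 9.86 to 9.97 and 9.01 to 9.21, with 8 of 13 lower. These counts include genes that passed the bound on 0 arrays, 6 of the oligodendrocyte and 8 of the vessel list. Of those above it on all 4 arrays, 2 oligodendrocyte genes were higher and 2 lower in animal 2, and 1 vessel gene each way. The microglia list summed to 7.89 to 8.22 in animal 1 and 7.37 to 7.64 in animal 2, although 3 of its 12 genes were lower and its median difference was 0.64. Csf1r, the microglial gene above the bound on all 4 arrays, differed by -1.46. Of the granule list, Zic2, Pax6, Slc17a7, Fat2 and Grin2c passed the bound on 0 arrays, and Gabra6, Zic1, Cbln1 and Neurod1 on 4. The microglial markers Cx3cr1 and P2ry12, the endothelial markers Pecam1 and Cdh5 and the myelin genes Mog and Mag also passed on 0. Other genes of the oligodendrocyte and vessel lists passed on 4, which were Mbp, Cnp, Olig1 and Ugt8a, and Slc2a1 and Rgs5. The part of these shifts in the members' values was not tested. In such mixed samples fewer cells of a type and less RNA per cell cannot be told apart.

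The last comparison was of the spread between samples. Over the 62 members above the bound on all 4 arrays, the median absolute log2 difference was 0.30 between samples of the same animal and 0.38 between animals, beside 0.29 and 0.40 over all named genes above it. Within animals it was 0.21 for samples 1-1 and 1-2 and 0.38 for samples 2-1 and 2-2. Between animals the 4 pairs lay between 0.27 and 0.46, so in the members the pair within animal 2 was as far apart as pairs across animals. Over all named genes above the bound that pair, at 0.36, was closer than each pair across animals, at 0.39 to 0.41. The small subunit spread from 0.32 to 0.57 across animals and the large from 0.24 to 0.45. With 2 pairs within and 4 between, the design allows no test of this difference at 0.05.

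**Figure D5:**
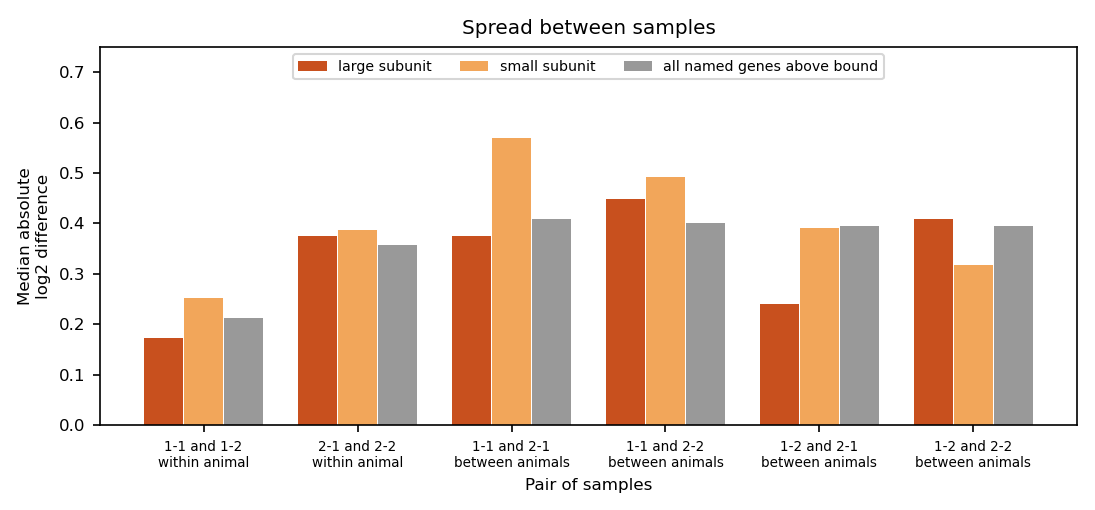
Median absolute log2 difference between 2 samples (vertical axis) for each of the 6 pairs, over 37 large-subunit genes (orange), 25 small-subunit genes (light orange) and all named genes above the bound on all 4 arrays (grey). The pair 1-1 and 1-2 is the closest in each group of genes, at 0.17, 0.25 and 0.21.

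The range over the samples had a median of 0.67 in the 62 members and 0.76 in all named genes above the bound. It was under 0.5 in 18 members and over 1 in 15 (24.2%), against 31.2% of all genes. Sample 2-2 held the lowest value of 25 members and the highest of 14, and sample 2-1 the lowest of 14 and the highest of 21. The median level of the large subunit was 8.45, 8.64, 8.64 and 8.43 in the order of samples, and that of the small subunit 7.93, 7.96, 8.15 and 8.11.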

How the data were processed

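The authors deposited intensity values, linear and 1 for each probe set on each array, and the submitters' processing notes name GCOS as the tool. Not given in the sources used here were its version, signal algorithm, scaling target and detection calls. Of 45101 probe sets, 34945 had 1 gene symbol in the platform annotation, 932 several, 9160 none, and 64 were controls, which were left out. All 76 member symbols matched their gene identifier in a RefSeq table of GRCm38.p6.

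The members and gene lists were chosen with earlier results of these data known. Signals were floored at 0.1 and log2-transformed. Trimmed array means (2% from each end) differed by 46.6% of their average, more than the 5% allowed, so quantile normalization in limma 3.58.1 (R 4.3.3) was used. Of 92 listed genes of other organs, 82 were measured and set the bound (their 95th percentile), and 3 of them were above it on all 4 arrays. The difference of animal 2 from animal 1 was fitted in limma (lmFit, then eBayes with trend) on the 10817 probe sets that passed the bound on 2 or more arrays. The residual degrees of freedom were 2, and p-values had Benjamini-Hochberg adjustment at 0.05. The steps were tested on simulated data. Lists were described by counts and medians, with no set test.

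Genes were named by rule: in each subunit the 4 highest and 3 lowest mean levels, the 4 largest differences in each direction, members below the bound on an array, members with known roles, those with opposed probe sets, and examples of each pathway list. Probe sets with several symbols were left out of the members. Alternatives were other normalizations, bounds, filters and choices of probe set, an offset of 16, a fit without trend, and each sample left out. Scan batches were not tested. Protein sequences were planned and not used here.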

Additional observations from a re-analysis of the deposited data

Results flagged for a closer look

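Of 76 members checked, 2 had a sample far from the other 3, where the gap to the nearest sample, as a share of the whole range, exceeded Dixon's 95% critical value. Chance alone gives about 1 such gene in 20. The level of Mrpl17 was 4.60 in sample 2-1, with a gap of 0.913 of the range, while the other samples were at 7.10, 6.88 and 7.06. The level of Mrps31 was 7.42 in sample 2-2, with a gap of 0.838 of the range, while the other samples were at 7.95, 8.03 and 7.93.

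Probe sets annotated to a member together with another gene were left out of the counts, and 3 of the 4 gave a signal above the bound on all 4 arrays. One of the probe sets of Mrpl30 and Gm6238 had a mean level of 9.02, while their other one was below the bound on every array. The mean level of the probe set of Mrpl53 and Ccdc142 was 8.86, and that of Mrps34 and Nme3 was 6.22. The signal cannot be given to either gene of a pair.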

How the results depend on the processing

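The counts above the bound were 37 and 25 in the large and small subunit with values as deposited and with arrays scaled to one median. They were 30 and 18 with the 99th percentile as bound, 44 and 29 when 2 arrays sufficed, 31 and 20 with the median over probe sets, and 44 and 27 with the 90th percentile, which was chosen after seeing the data. Shares of all named genes moved too, to 19.8%, 37.6%, 17.9% and 39.2% in that order. Without probe sets of the types _s_at, _x_at and _a_at the small-subunit count was 16, of 20 genes left. Leaving out 1 sample gave 37 to 40 in the large and 25 in the small subunit.

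Calls between animals depended on the processing. With values as deposited, 6 of 105 member probe sets were called, of Mrpl22, Mrps15, Mrps16, Mrps18a and Mrps33. Over all probe sets tested, 614 of 10817 were called, a like share. They were 605 higher and 9 lower in animal 2, against 25 and 18. With arrays scaled to one median there were 1 of 105 (Mrps16) and 97 of 10817, 84 higher and 13 lower. Without the filter on dim probe sets 5 probe sets were called, without the trend 0, where 15 member probe sets were at an unadjusted p under 0.05, and with the offset of 16 there were 55. In these 3 settings 0 member probe sets were called. Mrps16 was called with the 99th percentile as filter, where 73 probe sets were called higher and 61 lower of 7672 tested. Leaving out 1 sample gave 0 to 8 member probe sets and 2 to 1042 in all: 7 without 1-1, 2 without 1-2, 809 without 2-1 and 1042 without 2-2, and members were called in the last pair of settings only, 6 and 8. There the animal with 1 sample is assumed to vary like the other. The cause was not tested.

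The medians of the difference were 0.44 and 0.82 in the large and small subunit with values as deposited, and 0.13 and 0.51 with one median. Leaving out 1 sample gave -0.13 to -0.061 and 0.024 to 0.39. The spread between animals was 0.53 with values as deposited and 0.33 to 0.44 without 1 sample, and the spread within animals 0.21 to 0.38. Without sample 1-1 the spread within, at 0.38, was above that between, at 0.33. The difference of Mrpl17 reversed to 0.069 without sample 2-1 and was -2.37 without 2-2. Counting each named gene under each setting, 55 differences kept their direction and their side of the threshold. The others that kept their direction came to pass it, in part in fits that left 1 sample of an animal. Levels of named genes moved by more than the SD between animals in 58 cases and stayed within it in 198. Without probe sets of the types _s_at, _x_at and _a_at, Mrpl51 went from 11.16 to 4.17, Mrpl39 from 10.86 to 6.76, Mrpl44 from 10.63 to 6.26 and Mrps6 from 10.46 to 6.88. With the median over probe sets they were 4.34, 8.81, 8.39 and 8.67. No paired analysis was possible because the 4 samples form 1 group.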
